A study of Homo sapiens with 6 samples.

Results

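The 10 genes described here are 9 receptor tyrosine kinases whose signalling can take the place of EGFR when EGFR is inhibited (MET, MST1R, IGF1R, INSR, FGFR1, FGFR2, FGFR3, EPHA2 and DDR1) and HGF, the ligand of MET. They were taken by gene symbol from the annotated probe sets, 10 genes of 14232 that had a probe set of their own. The list of genes was drawn up with earlier results of these data known. Where a symbol had more than 1 probe set, the one with the highest mean signal over the 6 arrays stood for the gene. This applied only to IGF1R, with 2 probe sets, and 0 of the 10 were shared with another gene. The RNA came from HCC827, an established human lung adenocarcinoma line that carries an activating in-frame deletion in EGFR. The 3D cultures (3 arrays) were, by their labels, spheroids from hanging drops embedded in Matrigel, a gel of basement membrane proteins, and the 2D cultures (3 arrays) were monolayers on uncoated plastic. None of the 6 samples carried a drug label, and all were of the same line. The study's methods describe both spheroids without a gel and spheroids embedded in Matrigel with collagen type I, and do not state which of them gave the RNA for the arrays. If the labels hold, matrix was present only in 3D, and an effect of the third dimension and an effect of the gel cannot be told apart. Time in culture is not given in the labels, and neither is whether replicates were separate cultures, so a p-value here reflects the scatter among 6 arrays, and that scatter may be technical.

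Receptor tyrosine kinases bind a ligand outside the cell and, as pairs, phosphorylate tyrosines on their own tails and on docking proteins. This feeds the RAS-ERK and PI3K-AKT pathways. EGFR feeds the same pathways. For this reason a second active receptor, or more of its ligand, can keep a cell alive while EGFR is blocked, and amplification of MET and secretion of HGF are well known examples in EGFR-mutant lung cancer. Arrays measure RNA only, and neither receptor protein nor phosphorylation can be read from them.

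The signals were log2 values from RMA, a method that corrects the background, gives all arrays the same distribution and summarises the probes of a transcript. They reached 13.59, with a median of 6.26 on every array. Pearson's r over the 22011 probe sets, taken as a description, was 0.956 to 0.974 among the 3D arrays and 0.980 to 0.987 among the 2D arrays. Pairs of unlike culture had 0.943 to 0.975. The array of 3D replicate 2 held the highest or the lowest signal for 53.6% of all probe sets and for 6 of the 10 genes. The epithelial markers fitted the labelled cells, with 9 of 10 above a reference for dim signal, taken from olfactory receptor genes, on all 6 arrays and ELF3 the exception. The mean signal of these 10 markers was 8.60 to 8.77 on 3D arrays and 9.09 to 9.27 on 2D arrays. Of their log2 differences (3D minus 2D), 9 of 10 lay below 0, with a median of -0.48. At an unadjusted p under 0.05 (limma) 5 were lower, against 15.1% of all probe sets in either direction. After adjustment 0 of the 10 had a p under 0.05 (limma). The labels name HCC827 alone, and bulk RNA does not tell fewer cells that use a marker from less of its RNA per cell.

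The 10 genes differed widely in signal, and 0 of the 10 passed the test between 3D and 2D (limma, adjusted p under 0.05, against 0.382% of all probe sets). Before adjustment HGF and FGFR2, 2 of the 10, had a p under 0.05, against 15.1% of all probe sets. MET gave by far the brightest signal in both cultures, the IGF1R, DDR1 and EPHA2 signals lay in the upper part of the range, and HGF and FGFR2 lay low. HGF had a log2 difference of 1.55 and FGFR2 of -0.66, while the other 8 lay within 0.30 of 0. The arrays of the cultures did not overlap for HGF and FGFR3, where all 3D arrays were higher (12.7% of all probe sets), and for FGFR2, where all 3D arrays were lower (10% of all probe sets). The median difference of the 10 genes was -0.11, against 0.052 over all probe sets. The 95% intervals reached to either side by 0.34 to 1.22 on the log2 scale and are not adjusted for the number of probe sets. Differences within that reach could not pass the test. Those of HGF and FGFR2 went beyond it and still failed after adjustment, so a failed test does not show an unchanged gene.

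**Figure D1:**
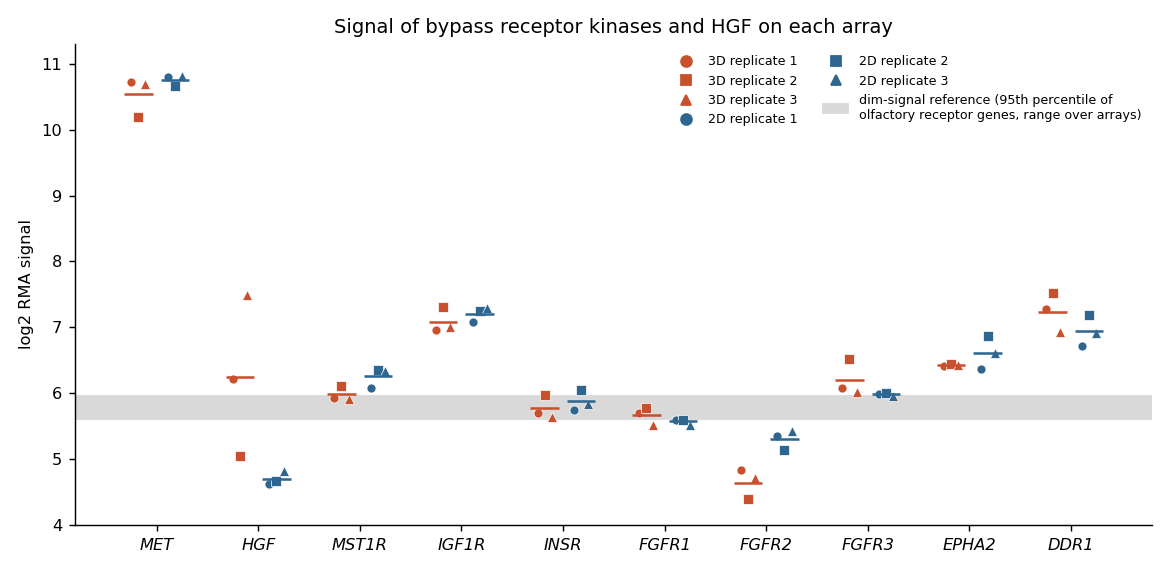
Log2 RMA signal of each of the 10 genes on each of the 6 arrays (3D in red, 2D in blue, symbols for replicates, horizontal bars for group means), with the grey band marking the dim-signal reference from 5.61 to 5.96. MET stood above 10 on every array, the HGF signals of 3D spread from 5.05 to 7.49 while those of 2D lay between 4.63 and 4.82, and FGFR2 lay below the band throughout.

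The table of values holds no call of signal against background. As a reference for dim signal, the 95th percentile of 220 probe sets of olfactory receptor genes was taken on each array and lay between 5.61 and 5.96. These genes were assumed to be little used in lung epithelial cells, although the brightest of their signals reached 7.19. MET, IGF1R, FGFR3, EPHA2 and DDR1 exceeded it on all 6 arrays. MST1R exceeded it on 2 of 3 3D arrays and on 3 of 3 2D arrays, and INSR on 1 of 3 3D arrays and on 3 of 3 2D arrays. HGF exceeded it on 2 of 3 3D arrays and on 0 of 3 2D arrays, and FGFR1 and FGFR2 on 0 of 6. The reference is a loose one. At the 90th percentile 8 of the 10 genes exceeded it on all arrays, and against 35 probe sets of keratin-associated protein genes, which are brighter, only MET did. Probe sets differ in how well their probes bind, so a percentile among all probe sets places a signal on the array and does not count molecules.

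MET, the receptor for hepatocyte growth factor, lay at percentile 96.9 of all probe sets by its mean signal. Its signal was 10.72, 10.20 and 10.69 in 3D replicates 1 to 3, against 10.80, 10.66 and 10.82 in the 2D replicates. The groups overlapped, and 3D replicate 2 was the lowest of the 6 arrays. The log2 difference was -0.22 (standard error, SE, 0.18, 95% interval -0.65 to 0.21, limma, adjusted p = 0.573), and -0.055 without 3D replicate 2.

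HGF, the ligand of MET, is typically made by fibroblasts and other mesenchymal cells and acts on epithelial cells that carry the receptor. Its signal was 6.21, 5.05 and 7.49 in 3D replicates 1 to 3, against 4.63, 4.67 and 4.82 in the 2D replicates. All 3D arrays lay above all 2D arrays, by 0.23 at the nearest pair, and the 3D arrays spread over 2.45 on the log2 scale. The means were 6.25 ± 1.22 in 3D and 4.70 ± 0.10 in 2D (SD, n = 3 each). This gave a log2 difference of 1.55 (SE 0.53, 95% interval 0.32 to 2.77), which did not pass after adjustment (limma, adjusted p = 0.253). An exact permutation test, 2-sided, gave p = 0.1, the smallest that 3 arrays against 3 allow. Leaving out 3D replicate 3 gave 0.92 (limma, adjusted p = 0.214). Leaving out 3D replicate 2 gave 2.15 (adjusted p = 0.0655), and over all alternatives tried the adjusted p lay between 0.0612 and 0.578. All 2D signals and that of 3D replicate 2 lay below the reference for dim signal, so these are differences in measured signal and do not give the size of a change in HGF RNA.

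Markers of fibroblasts, the usual source of HGF, had a low mean signal in both cultures, although COL1A1 lay at percentile 56.7 of all probe sets. Of 10 such markers, 2 (COL1A1 and COL1A2) exceeded the reference for dim signal on all arrays, and 0 passed the test (limma, also 0 at an unadjusted p under 0.05). Their mean signal was 5.09 to 5.27 on 3D arrays and 4.89 to 5.09 on 2D arrays. All 10 had a log2 difference above 0, with a median of 0.21 and a largest value of 0.41 for LUM, which encodes the matrix proteoglycan lumican. Of 8 leukocyte markers 6 were measured, with a mean signal of 5.55 to 5.86 on 3D arrays and 5.41 to 5.42 on 2D arrays. Only CD68, at percentile 93.9 of all probe sets, exceeded the reference for dim signal on all arrays. CD14 and CSF1R, 2 of the 6, were higher in 3D at an unadjusted p under 0.05 (limma), against 15.1% of all probe sets in either direction. After adjustment 0 of the 6 passed, and all 2D signals of CD14 lay below the reference. Of the 6, 5 had a log2 difference above 0, while CD68 had -0.15. The difference of PTPRC was 0.094, at percentile 7.5 of all probe sets. The mean signal of 7 endothelial markers was 5.33 to 5.44 on 3D arrays and 5.28 to 5.31 on 2D arrays. Only CLDN5 exceeded the reference for dim signal on all arrays, and it had the highest log2 difference at 0.52 (limma, adjusted p = 0.343). KDR had the lowest at -0.29 (limma, adjusted p = 0.370), and 0 of the 7 passed. The labels name HCC827 as the only cells in every sample, and the source of the HGF signal was not tested.

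The stretch of 250 bases before the transcript start is shown for MET and HGF, because the receptor had the brightest signal of the 10 genes and the ligand had the largest difference. Both lie on chromosome 7 and were read from a set of promoter stretches on RefSeq's GRCh38.p14, which held 9 of the 10 genes and lacked FGFR1. MET lies on the plus strand (chr7:116671946-116672195) and HGF on the minus strand (chr7:81770048-81770297), and each is written 5′ to 3′ on the strand of its gene. Capitals mark the GC box GGGCGG, searched on both strands.
MET: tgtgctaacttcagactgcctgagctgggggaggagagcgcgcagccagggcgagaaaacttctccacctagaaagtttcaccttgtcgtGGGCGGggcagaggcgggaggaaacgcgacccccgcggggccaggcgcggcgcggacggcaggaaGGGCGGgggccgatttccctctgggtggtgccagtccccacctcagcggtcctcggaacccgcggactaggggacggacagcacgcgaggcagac
HGF: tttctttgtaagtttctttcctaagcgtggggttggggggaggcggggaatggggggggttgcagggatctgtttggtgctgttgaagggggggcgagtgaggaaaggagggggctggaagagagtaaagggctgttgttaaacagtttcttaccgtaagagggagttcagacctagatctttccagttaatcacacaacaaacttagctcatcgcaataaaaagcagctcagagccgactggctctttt
The MET stretch held 2 GC boxes, a motif found in 42.6% of all 35116 promoter stretches of this length, and the HGF stretch held 0. The TATA box TATAAA (10.7% of all stretches) and the CCAAT box CCAAT (32.0%), also searched on both strands, had 0 matches in either. Bases G and C made up 68.4% of the MET stretch and 50% of the HGF stretch, with 24 and 6 CpG pairs, against a median of 58% over all stretches. These are features of the letters in the window and not measurements of binding.

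MST1R encodes RON, the closest relative of MET, whose ligand is macrophage-stimulating protein. Its signal was 5.92, 6.11 and 5.91 in 3D replicates 1 to 3, against 6.08, 6.36 and 6.33 in the 2D replicates. The highest 3D array lay just above the lowest 2D array. A log2 difference of -0.27 was found (SE 0.16, 95% interval -0.64 to 0.087, limma, adjusted p = 0.433) and lay between -0.36 and -0.22 without single arrays.
The list of activating proteases, inhibitors and partners of the HGF and MST1 axis had 12 of 16 genes measured, of which 0 passed in either direction (limma), while 1 higher and 2 lower had an unadjusted p under 0.05. Its median log2 difference was 0.039. The highest value was 0.37 for LRIG1, a membrane protein that lowers the amount of several receptor kinases (adjusted p = 0.287), and the lowest was -0.52 for PLAU, which encodes the protease urokinase (adjusted p = 0.358).

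IGF1R, the receptor for insulin-like growth factors, had a signal of 6.95, 7.30 and 7.0 in 3D replicates 1 to 3, against 7.08, 7.25 and 7.29 in the 2D replicates, and the groups overlapped. The log2 difference was -0.12 (SE 0.16, 95% interval -0.50 to 0.26, limma, adjusted p = 0.739). A second probe set of IGF1R had 6.93, 7.13 and 6.72 in 3D, against 7.45, 7.22 and 7.24 in 2D. There all 3D arrays were lower than all 2D arrays, and the means differed by -0.37 on the log2 scale (SE 0.17, adjusted p = 0.343). The probe sets of this gene therefore differed in whether the groups overlapped, and neither passed the test. INSR, the insulin receptor, which can pair with IGF1R, had 5.69, 5.97 and 5.64 in 3D, against 5.74, 6.04 and 5.84 in 2D. Its log2 difference was -0.10 (SE 0.17, 95% interval -0.49 to 0.28, adjusted p = 0.780), and -0.021 without 2D replicate 2.
Of the ligands, other receptors, binding proteins and docking proteins of IGF and insulin, 15 of 21 were measured, and 0 passed in either direction (limma), while 1 higher and 0 lower had an unadjusted p under 0.05. The median log2 difference was -0.10. IGF1, a ligand of IGF1R that is mostly made outside the epithelium, had the highest value, with 5.78 ± 0.23 in 3D and 5.17 ± 0.13 in 2D (SD, n = 3 each), a difference of 0.60 (adjusted p = 0.199). All 3D arrays lay above all 2D arrays for IGF1. Its 2D signals and those of 3D replicates 1 and 2 were below the reference for dim signal. The difference therefore does not give the size of a change in IGF1 RNA. IGFBP3, a protein that binds IGFs outside the cell, had the lowest value at -0.28 (adjusted p = 0.397).

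Of the fibroblast growth factor receptors, FGFR1, FGFR2 and FGFR3 lay between percentiles 23.3 (FGFR2) and 45.2 (FGFR3) of all probe sets by mean signal. FGFR2, whose epithelial form responds to ligands of the mesenchyme, had 4.83, 4.39 and 4.71 in 3D replicates 1 to 3, against 5.35, 5.14 and 5.42 in the 2D replicates. All 3D arrays lay below all 2D arrays, by 0.31 at the nearest pair. The means were 4.64 ± 0.23 in 3D and 5.30 ± 0.15 in 2D (SD, n = 3 each). The log2 difference was -0.66 (SE 0.18, 95% interval -1.07 to -0.25, limma, adjusted p = 0.171; exact permutation test, 2-sided, p = 0.1). It lay between -0.75 and -0.53 without single arrays. All 6 signals were below the reference for dim signal. The epithelial markers had a median log2 difference of -0.48, and their part in the FGFR2 values was not tested.
FGFR3 had 6.08, 6.52 and 6.01 in 3D, against 5.99, 6.00 and 5.96 in 2D. The groups were parted by 0.011 only, and 3D replicate 2 stood above the rest. The log2 difference was 0.22 (SE 0.18, 95% interval -0.19 to 0.63, adjusted p = 0.565), and 0.061 without 3D replicate 2. FGFR1, which is common in mesenchymal cells, had 5.71, 5.78 and 5.51 in 3D, against 5.60, 5.59 and 5.52 in 2D. Its groups overlapped, with a log2 difference of 0.094 (SE 0.15, 95% interval -0.25 to 0.44, adjusted p = 0.778).
Of the FGF ligands, other receptors, co-receptors and partners, 29 of 36 were measured, and 0 passed in either direction (limma), while 2 higher and 0 lower had an unadjusted p under 0.05. Their median log2 difference was 0.11. FGF6, a ligand known from muscle, had the highest value at 0.63 (adjusted p = 0.171), and FGF5, a ligand known for its role in hair growth, had the lowest at -0.46 (adjusted p = 0.347). All 2D signals of FGF6 and all 3D signals of FGF5 lay below the reference for dim signal. Neither difference gives the size of a change in RNA.

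**Figure D2:**
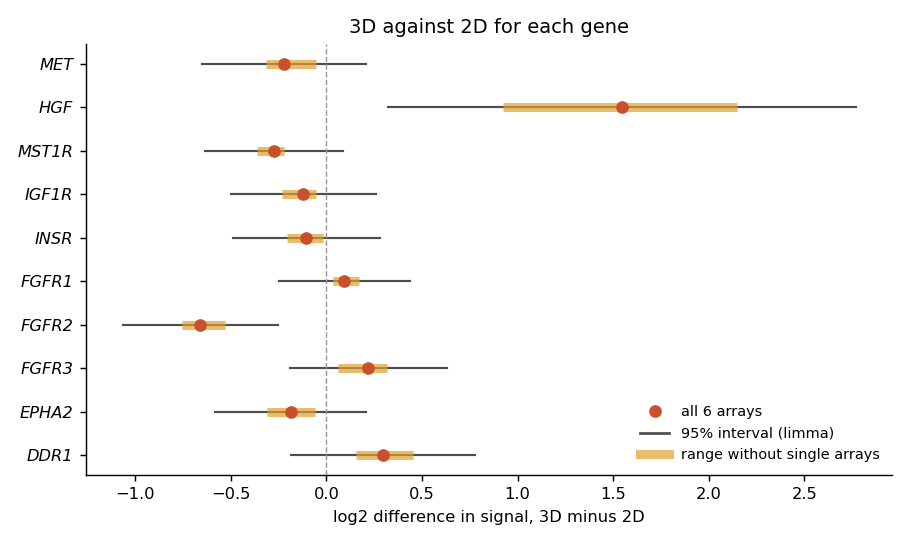
Log2 difference in signal (3D minus 2D) of the 10 genes (points), with 95% intervals from limma (thin lines) and the range when each of the 6 arrays was left out in turn (broad bars). The intervals of HGF (0.32 to 2.77) and FGFR2 (-1.07 to -0.25) did not reach 0, although both failed the test after adjustment over all probe sets.

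EPHA2, a receptor for ephrins on neighbouring cells, had 6.41, 6.44 and 6.43 in 3D replicates 1 to 3, against 6.37, 6.87 and 6.61 in the 2D replicates. The 3D arrays lay within 0.036 of each other and inside the range of the 2D arrays. EPHA2 thus had a log2 difference of -0.19 (SE 0.17, 95% interval -0.58 to 0.21, limma, adjusted p = 0.610), and -0.059 without 2D replicate 2. Of the ephrins and the other Eph receptors, 19 of 21 were measured, and 0 passed in either direction (limma), while 2 higher and 1 lower had an unadjusted p under 0.05. The median log2 difference was 0.10.
EPHA7, an Eph receptor best known from the nervous system, had the highest value of that list. Its signal was 6.19, 5.15 and 6.18 in 3D, against 4.23, 4.42 and 4.37 in 2D, and the groups did not overlap. The 2D signals and that of 3D replicate 2 lay below the reference for dim signal. The difference in measured signal was 1.5 on the log2 scale (SE 0.29, adjusted p = 0.0875), which does not give the size of a change in EPHA7 RNA. EPHA7 passed without 3D replicate 2 (1.85, adjusted p = 0.00878), but its adjusted p was between 0.111 and 0.327 without any other single array. EPHA4 had the lowest value at -0.50 (adjusted p = 0.251).
DDR1, a receptor that binds collagen and not a soluble ligand, had 7.27, 7.52 and 6.92 in 3D, against 6.72, 7.19 and 6.92 in 2D. The groups overlapped, although 3D replicate 2 was the highest of the 6 arrays. Between the means lay a log2 difference of 0.30 (SE 0.21, 95% interval -0.18 to 0.78, limma, adjusted p = 0.512), which became 0.16 when 3D replicate 2 was left out and 0.46 when 3D replicate 3 was. Of collagens and partners of the DDR receptors, 18 of 18 were measured, and 0 passed in either direction (limma), while 0 higher and 2 lower had an unadjusted p under 0.05. The median log2 difference was 0.078. COL2A1, a cartilage collagen, had the highest value at 0.28 (adjusted p = 0.448). TM4SF1, a membrane protein that couples DDR1 to its signalling, had the lowest at -0.80 (adjusted p = 0.125), with 9.44 ± 0.21 in 3D and 10.24 ± 0.21 in 2D (SD, n = 3 each).

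**Figure D3:**
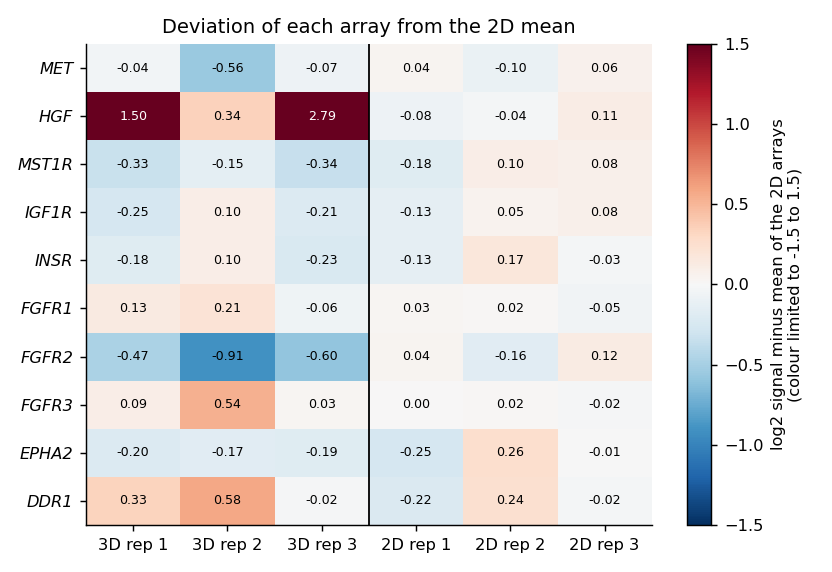
Log2 signal of each gene on each array (3D left, 2D right of the line) minus the mean of its 2D arrays, with numbers in the cells and colours limited to -1.5 to 1.5. The column of 3D replicate 2 holds the lowest values of MET and FGFR2 and the highest of IGF1R, FGFR1, FGFR3 and DDR1.

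EGFR, the receptor that these kinases can replace, had 8.75, 8.93 and 9.19 in 3D replicates 1 to 3, against 9.44, 9.66 and 9.78 in the 2D replicates. All 3D arrays were lower than all 2D arrays, and the means differed by -0.67 on the log2 scale (SE 0.18, limma, adjusted p = 0.171). Of the 4 ErbB receptors 0 passed (limma), while 0 higher and 1 lower had an unadjusted p under 0.05. ERBB4 had the highest value of them at 0.23 (adjusted p = 0.521), with all its signals below the reference for dim signal.
Of 26 receptor tyrosine kinases outside these families 23 were measured, and 0 passed in either direction (limma), while 3 higher and 3 lower had an unadjusted p under 0.05. Their median log2 difference was 0.064. ROR1, a receptor of the WNT5A pathway, had the lowest value. Its signal was 6.96, 7.15 and 7.62 in 3D, against 8.33, 8.57 and 8.35 in 2D, with no overlap of the groups and a difference of -1.18 (SE 0.20, adjusted p = 0.0661). ROR1 passed without 3D replicate 3 (-1.36, adjusted p = 0.0395), and its adjusted p was between 0.0911 and 0.271 without any other single array. ROS1 had the highest value at 0.62 (adjusted p = 0.244), on dim signals of 4.29 ± 0.36 in 3D and 3.67 ± 0.12 in 2D (SD, n = 3 each).
Of 22 adaptors and effectors that several receptors share, 17 were measured, and 0 passed in either direction (limma), while 1 higher and 3 lower had an unadjusted p under 0.05. Their median log2 difference was 0.043. SHC3, a docking protein best known from neurons, had the highest value at 0.52 (adjusted p = 0.213), and PIK3CB, a catalytic subunit of PI3K, had the lowest at -0.69 (adjusted p = 0.310). The signals of SHC3 in 2D replicates 1 and 2 lay below the reference for dim signal. Over all 8 pathway lists, 0 of 137 measured genes passed (limma), while 10 higher and 12 lower had an unadjusted p under 0.05. Together these were 16.1% of the measured genes, near the 15.1% of all probe sets.

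**Figure D4:**
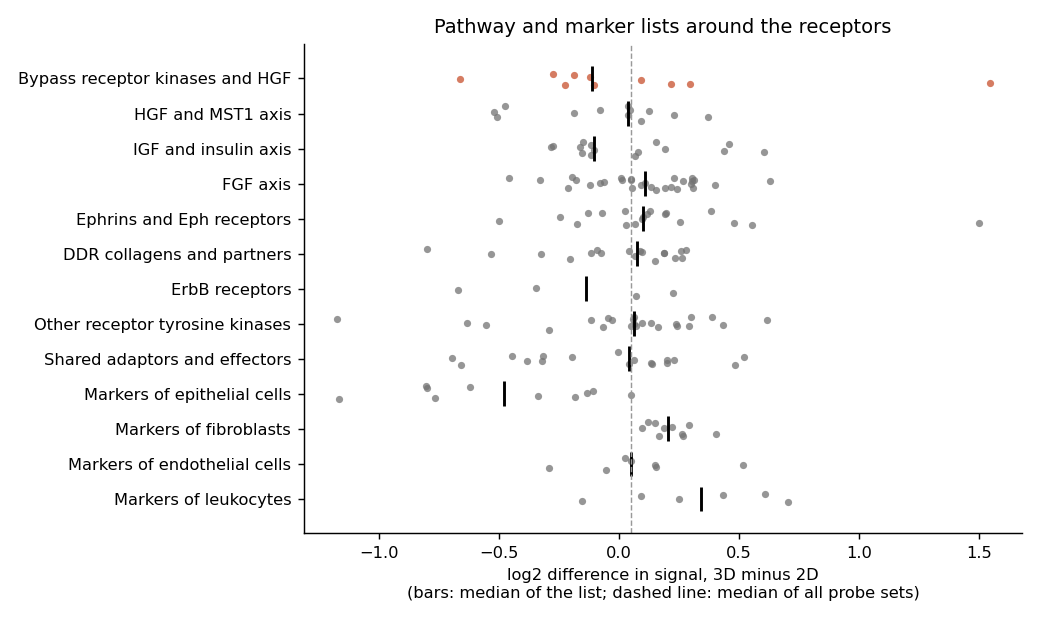
Log2 difference in signal (3D minus 2D) of the 10 genes (red) and of the genes of 8 pathway lists and 4 marker lists (grey points), with the median of each list (black bars) and of all probe sets (dashed line at 0.052). HGF at 1.55 and EPHA7 at 1.5 lie farthest to the right, ROR1 at -1.18 and the epithelial keratin gene KRT19 at -1.16 farthest to the left.

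The genes whose signals followed those of the brightest 3 of the 10 most closely were sought by Pearson's r over the 6 arrays among 9250 genes, as a description only. For MET these were CPLANE1 and RIF1 (r = 0.998 and 0.997, n = 6 arrays), which like MET had their lowest signal on 3D replicate 2, at 6.05 and 5.88. For the probe set that stood for IGF1R they were ECI1 (0.998) and ACOX3 (0.987), and the other IGF1R probe set was not searched. For DDR1 they were ABCG4 (0.998) and FLYWCH1 (0.992). The points share their arrays and cultures. The genes most like HGF, chosen after the values were seen, were GPAT3 (0.990) and CXCL17 (0.989). CXCL17, a chemokine of mucosal surfaces, had 6.98, 5.85 and 7.67 in 3D replicates 1 to 3, against 5.31, 5.55 and 5.52 in the 2D replicates (log2 difference 1.37, limma, adjusted p = 0.205). Its 2D signals and that of 3D replicate 2 lay below the reference for dim signal. Searches of the same kind for FGFR2 and FGFR3, also made after the values were seen, gave r as close, with CCNY (0.997) and ST6GALNAC6 (0.995).

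**Figure D5:**
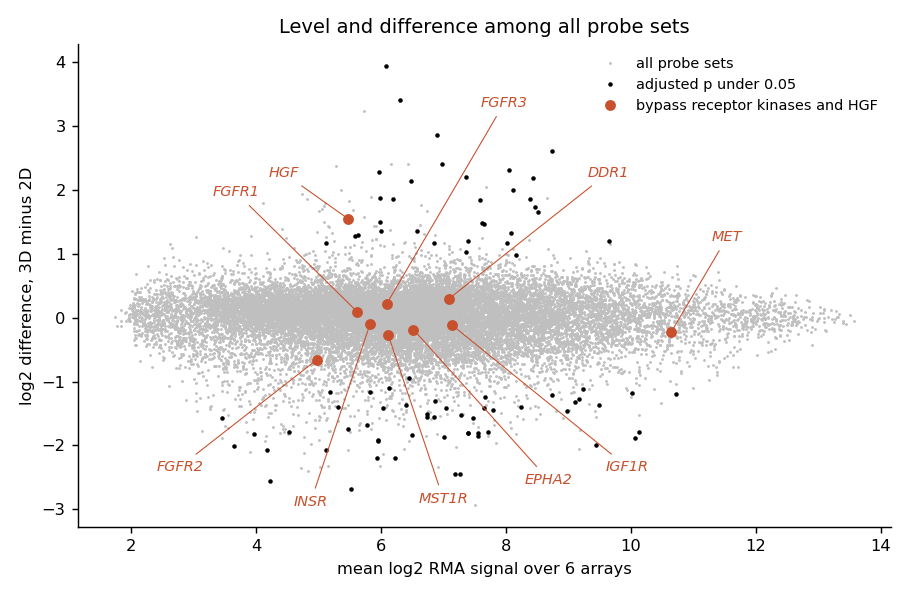
Mean log2 RMA signal over the 6 arrays (horizontal) and log2 difference, 3D minus 2D (vertical), of all 22011 probe sets (grey), of the 84 with an adjusted p under 0.05 (black) and of the 10 genes (red). HGF, at 1.55, lies above the dense cloud of probe sets, and MET, at percentile 96.9 by mean signal, lies towards the bright end.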

How the data were processed

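RNA of 3 samples of HCC827 cells in 3D and 3 in 2D was hybridised to Affymetrix human exon arrays. The deposited values are log2 signals for 22011 probe sets, which the authors made by RMA with oligo. Their versions are not given in the sources used here, and the signals were used unaltered. Platform annotation gave 1 gene symbol for 14432 probe sets, several for 2408 and none for 5171, and all 10 symbols matched RefSeq by Entrez ID. The build behind the array annotation is not stated, so array coordinates are not printed. All probe sets entered 1 fit of culture in limma 3.58.1 (R 4.3.3), the package the study's methods name. Tests were 2-sided, with Benjamini-Hochberg adjustment across the whole table and calls at 0.05. A gene of a pathway list was represented by its brightest probe set with no other symbol. The genes, the lists and the reference for dim signal were chosen with earlier results of these data known. Named list genes were those past the threshold and the highest and lowest of each pathway list, and for the brightest 3 of the 10 genes the 2 genes of highest Pearson's r. Other choices of filter, prior, array weights, replicate block, scaling, features, threshold and probe set, and leaving out single arrays, were tried as alternatives. The fit was tested on simulated data. Precision is limited by the number of arrays. Plots came from matplotlib 3.10.9 (Python 3.11.15).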

Additional observations from a re-analysis of the deposited data

How the results depend on the processing

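Of the 10 genes 0 passed under any alternative. In the 80 recalculations that moved a difference (array weights, leaving out single arrays, centring on bright probe sets, and the mean of both IGF1R probe sets), 0 reversed its direction, while the other 76 left the difference as it was and could alter only its p or the threshold. The smallest adjusted p was 0.0612 for HGF (1.79) and 0.0869 for FGFR2 (-0.63), both with array weights in limma, which gave 3D replicate 2 the lowest weight at 0.314. With dim probe sets left out, 4 of the 10 (HGF, INSR, FGFR1 and FGFR2) were not tested. Genes of the pathway lists past the threshold, 0 in the fit reported, numbered 1 with dim probe sets left out (ROR1, adjusted p = 0.0377 in limma), 2 with array weights and 2 with 1 probe set per gene (EPHA7 and ROR1 in both), and 0 to 1 without single arrays. The count of the 10 genes whose groups did not overlap was 3 to 6 without single arrays, where 27.0% to 39.9% of all probe sets did not overlap, against 3 and 22.7% with all 6 arrays. Genes above the reference for dim signal on all arrays numbered 8 at its 90th percentile, and 1 at the 95th or 90th percentile of keratin-associated protein genes. Over all probe sets, 84 calls became 152 with dim probe sets left out, 415 with array weights, 185 with 1 probe set per gene, 0 at a threshold of 0.01, 0 without any single 2D array, and 7, 150 and 145 without 3D replicates 1, 2 and 3. The cause was not tested. The replicate number gives no pairing in the labels, and deviations of same-numbered arrays correlated at 0.089, 0.37 and 0.22. Each 3D array correlated best with the 2D array of its own number, while pairs of unlike number gave -0.327 to 0.167. The 2D replicate 1 array, however, correlated better with 3D replicate 3 (0.167) than with its own number. A pairing by number is thus not settled. With the replicate block 0 of the 10 genes passed (HGF adjusted p = 0.142, FGFR2 0.110, limma), and 86 probe sets did.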
